A study of Mus musculus with 24 samples.

Results

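The transcripts described here encode 9 enzymes that break down tyrosine and histidine, Tat, Hpd, Hgd, Gstz1 and Fah for tyrosine and Hal, Uroc1, Amdhd1 and Ftcd for histidine. They were found by gene symbol, 9 of 54532 genes in the count table, and all 9 passed the limit on low expression. The set was chosen by the fold changes of Hpd and Uroc1, which were among the strongest decreases in cystic kidneys, so the levels in RC/- and RC/+ kidneys are given as a description with no test.

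Whole kidneys of 24 C57BL/6 mice aged 18 days were sequenced, 1 library per mouse. All mice had on 1 Pkd1 copy the RC change, a missense change that lowers the amount of mature polycystin-1, the large membrane protein lost in polycystic kidney disease. In RC/+ mice (3, controls) the other allele was a floxed copy left intact, and in RC/- mice (5, cystic) it was inactivated by Ksp-Cre, which acts in kidney tubule epithelium, mainly in its distal segments and collecting ducts. In RC/+ D18 (3) and RC/- D18 (5), from founder 3, and in RC/+ D53 (3) and RC/- D53 (5), from founder 2, the miR-17 binding motif had in addition been removed from the RC allele. Cre was present only in the RC/- genotypes, so Cre and cystic genotype cannot be told apart. Each edited line descends from 1 founder, so line and deletion cannot be told apart either.

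Tyrosine is broken down in 5 steps. Tat removes the amino group, Hpd turns the product into homogentisate, and Hgd opens the aromatic ring. Gstz1 isomerises the resulting maleylacetoacetate, and Fah splits the isomer into fumarate and acetoacetate. Histidine is deaminated by Hal to urocanate, which Uroc1 hydrates, Amdhd1 cleaves the next ring, and Ftcd hands the remaining one-carbon unit to tetrahydrofolate. Both routes are best known from liver. In kidney several of these enzymes are found mainly in the proximal tubule, the segment that takes up filtered amino acids.

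In GRCm38 coordinates the tyrosine genes lie at chr8:109990437-109999803 (Tat), chr5:123171807-123182727 (Hpd), chr16:37580153-37632020 (Hgd), chr12:87147165-87164723 (Gstz1) and chr7:84585159-84606722 (Fah). The histidine genes lie at chr10:93488768-93519304 (Hal), chr6:90333284-90364551 (Uroc1), chr10:93523338-93540033 (Amdhd1) and chr10:76575648-76590338 (Ftcd). Hal and Amdhd1 face each other with 4033 bases between their ends. All 9 are protein coding, and the counts are of reads in their exons. For Gstz1, 12.2% of the exon bases also belong to Pomt2 or Gm6566 on the opposite strand, so part of its reads may be theirs; no other member shared exon bases with another gene.

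The 120 bases before the RefSeq start site (build GRCm38.p6) are shown for Hpd, Hgd, Gstz1 and Uroc1, 4 members that were lower together in RC/- kidneys, and for Hal, the member that was higher. Each is read in the direction of its gene. Capitals mark matches, on either strand, to any of 4 short motifs, the TATA box (TATAAA), the CCAAT box (CCAAT), the GC box (GGGCGG) and the core of HNF4 sites (AAAGTCC).
Hpd, chr5:123182724-123182843, minus strand: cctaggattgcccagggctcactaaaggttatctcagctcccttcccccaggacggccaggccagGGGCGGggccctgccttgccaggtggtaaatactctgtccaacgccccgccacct
Hgd, chr16:37580033-37580152, plus strand: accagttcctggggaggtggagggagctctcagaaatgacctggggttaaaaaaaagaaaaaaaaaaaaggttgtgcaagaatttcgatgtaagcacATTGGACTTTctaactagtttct
Gstz1, chr12:87147045-87147164, plus strand: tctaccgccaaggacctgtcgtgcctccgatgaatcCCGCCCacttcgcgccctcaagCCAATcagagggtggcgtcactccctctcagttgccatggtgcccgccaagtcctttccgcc
Uroc1, chr6:90333169-90333288, plus strand: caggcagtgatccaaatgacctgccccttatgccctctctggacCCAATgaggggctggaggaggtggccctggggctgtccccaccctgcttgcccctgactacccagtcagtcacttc
Hal, chr10:93488648-93488767, plus strand: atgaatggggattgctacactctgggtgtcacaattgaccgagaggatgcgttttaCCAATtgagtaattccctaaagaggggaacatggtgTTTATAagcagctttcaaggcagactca
None of the 4 motifs was found before all 4 genes with lower transcript levels. Over the 250 bases before the start, CCAAT was found for Hgd, Gstz1 and Uroc1, and also for Hal and Tat. It is in 33.8% of 32851 promoter windows of the genome. GGGCGG was found for Hpd, Gstz1, Fah and Amdhd1 (32.7% of windows). TATAAA was found for Hgd, Hal and Ftcd (12.4% of windows). AAAGTCC was found for Hgd only (3.58% of windows), where it shares 2 bases with a CCAAT match. A match in these windows is a run of letters and was not tested for binding. For Fah the RefSeq start lies 780 bases from the annotated gene end used for the coordinates, so its stretch is not shown.

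In RC/+ kidneys the members spanned a wide range of levels. Levels are given in CPM, read counts scaled to the same library total, and were divided by exon length in kilobases to compare genes. Per kilobase, Fah (107), Hgd (103), Gstz1 (39.6) and Hpd (12.1) were the most abundant, Uroc1 (3.16) and Amdhd1 (2.64) followed, and Ftcd (0.102), Tat (0.0401) and Hal (0.0226) were close to 0 CPM per kilobase. Tat had 0 to 5 counts and Hal 2 to 4 counts per RC/+ library, the first steps of the tyrosine and of the histidine route, while Hpd, Hgd, Gstz1, Fah, Uroc1 and Amdhd1 each had at least 110 counts in every RC/+ library. Libraries held 20.4 to 30.8 M counts. Pkd1 itself was 49.9 to 51.5 CPM in RC/+ and 52.0 to 65.2 CPM in RC/-, so counts over the whole gene do not check the genotype labels.

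**Figure D1:**
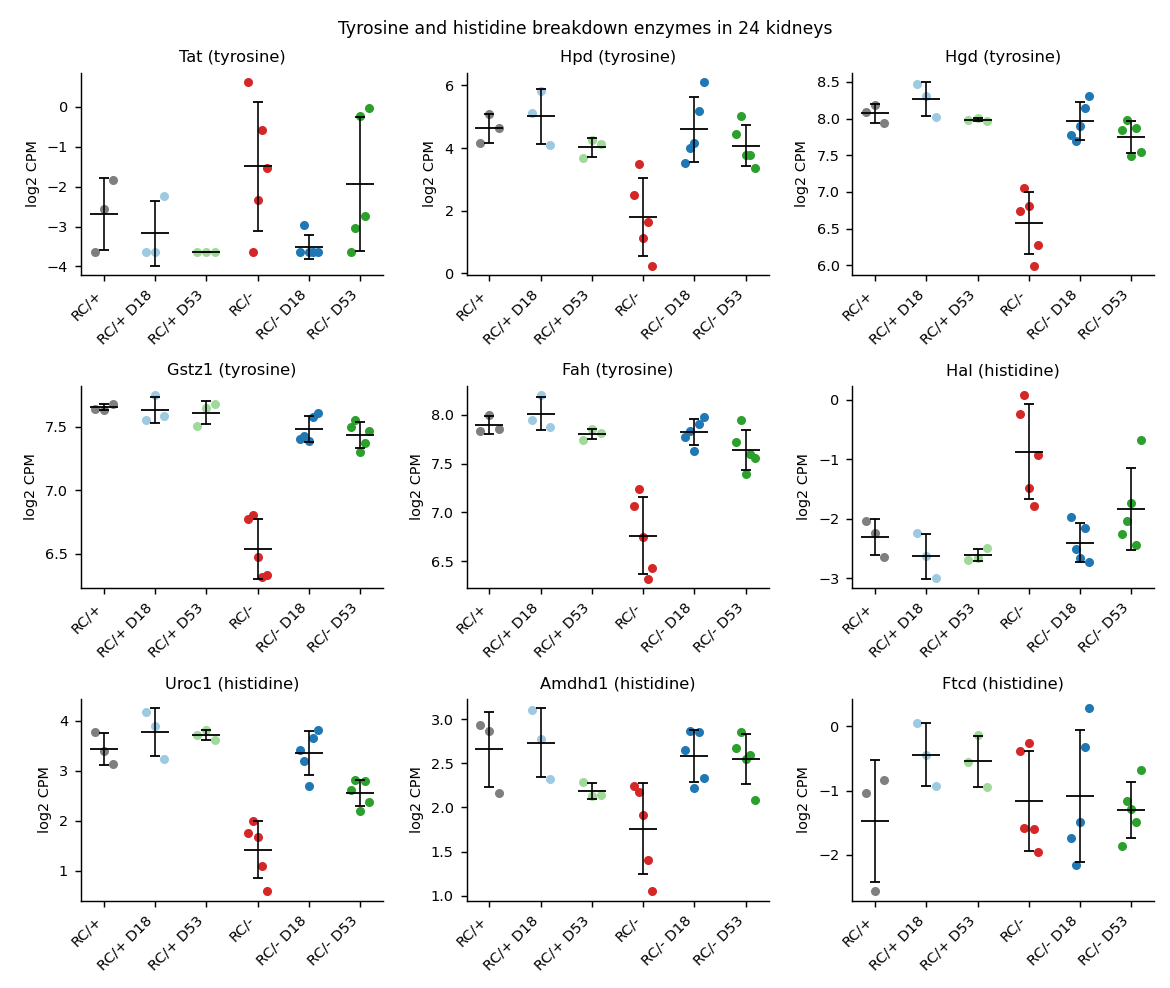
Level of each enzyme in log2 CPM (vertical axis, a prior count of 2 added) in the 24 kidneys, 1 point per library, with the group mean and SD. RC/- points lie below all RC/+ points for Hpd, Hgd, Gstz1, Fah and Uroc1 and above them for Hal.

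Hpd, the dioxygenase that makes homogentisate, had the largest absolute log2 fold change of the members in RC/- against RC/+. RC/+ kidneys had 18.0, 34.2 and 24.8 CPM, and RC/- kidneys had 5.60, 11.1, 2.11, 3.06 and 1.11 CPM. Every RC/- library was below every RC/+ library, with a mean of 17.9% of the RC/+ mean and a log2 fold change of -2.83 (95% interval -4.01 to -1.65, SE 0.57). The RC/- libraries themselves differed by 10.04 times from the lowest to the highest. RC/- D18 kidneys had 11.4, 15.8, 17.9, 36.6 and 68.3 CPM, and RC/- D53 kidneys had 21.6, 32.5, 13.7, 13.6 and 10.1 CPM. All RC/- D18 libraries were above all RC/- libraries, and only the lowest RC/- D53 library came under the highest RC/- one. The edited controls had 35.0, 56.7 and 16.96 CPM in RC/+ D18 and 12.8, 19.2 and 17.3 CPM in RC/+ D53.

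Hgd, which opens the ring of homogentisate, was measured with at least 1517 counts in every library. Its level was 273, 292 and 244 CPM in RC/+ and 107, 133, 112, 63.7 and 77.6 CPM in RC/-. In RC/- D18 it stood at 219, 207, 238, 282 and 318 CPM and in RC/- D53 at 229, 253, 180.1, 234 and 187 CPM. RC/- stood apart below all other groups, at 36.5% of the RC/+ mean (log2 fold change -1.50, 95% interval -1.86 to -1.13), and every edited cystic library was above every RC/- library. RC/+ D18 had 355, 315 and 259.5 CPM and RC/+ D53 had 252, 257 and 249.7 CPM.

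Gstz1 and Fah, the last enzymes of the tyrosine route, were the least variable members. Gstz1 was 199.9, 199 and 205 CPM in RC/+ and 109, 112, 88.9, 79.5 and 80.4 CPM in RC/-. In RC/- D18 it was 169, 172, 168, 191 and 195 CPM and in RC/- D53 180.4, 188, 157, 166 and 177 CPM. The RC/- mean was 46.7% of the RC/+ mean (log2 fold change -1.11, 95% interval -1.31 to -0.91), again with no overlap with RC/+ or with the edited cystic groups. Fah was 228, 256 and 231 CPM in RC/+ and 134, 151, 108, 80.1 and 86.1 CPM in RC/-, a mean of 46.9% (log2 fold change -1.13, 95% interval -1.44 to -0.82). RC/- D18 had 218, 228, 198, 239.8 and 251 CPM of Fah and RC/- D53 had 211, 245, 168, 193 and 188 CPM. These libraries lay above all RC/- libraries too. In the edited controls Gstz1 spanned 182 to 215 CPM and Fah 214 to 293 CPM.

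Uroc1, the urocanase, had the largest gap among the histidine enzymes. RC/+ kidneys had 13.7, 10.5 and 8.75 CPM, and RC/- kidneys had 3.29, 3.89, 3.10, 2.06 and 1.42 CPM. RC/- was below RC/+ in every library, at 25.03% of its mean (log2 fold change -2.03, 95% interval -2.59 to -1.46). RC/- D18 had 10.6, 9.06, 6.43, 12.5 and 14.1 CPM, and RC/- D53 had 6.06, 6.92, 4.47, 6.83 and 5.12 CPM. Both edited cystic groups were above RC/- without overlap, at means of 95.97% (D18) and 53.6% (D53) of RC/+. RC/+ D18 controls had 18.1, 14.8 and 9.37 CPM and RC/+ D53 controls 13.1, 14.01 and 12.2 CPM.

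Amdhd1, the next enzyme of the route, was lower by less and overlapped. It was 7.55, 7.21 and 4.42 CPM in RC/+ and 4.66, 4.43, 3.69, 2.56 and 1.99 CPM in RC/- (log2 fold change -0.90, 95% interval -1.41 to -0.38). RC/- D18 had 6.18, 7.19, 4.59, 7.16 and 4.97 CPM and RC/- D53 6.29, 7.12, 5.75, 5.94 and 4.15 CPM. The highest RC/- libraries exceeded the lowest library of RC/+ and of both edited cystic groups. Amdhd1 was 4.91 to 8.49 CPM in RC/+ D18 and 4.30 to 4.80 CPM in RC/+ D53.

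Hal, which commits histidine to breakdown, went the other way at a very low level. RC/+ had 4, 3 and 2 counts (0.163, 0.133 and 0.0803 CPM) and RC/- had 18, 23, 7, 5 and 10 counts (0.770, 0.971, 0.278, 0.210 and 0.442 CPM). RC/- was above RC/+ in every library (log2 fold change 1.43, 95% interval 0.60 to 2.26, with a prior count of 2 that pulls low counts together). RC/- D18 had 2 to 4 counts, below all RC/- libraries, and RC/- D53 had 3 to 15 counts, which overlapped them. Controls of the edited lines had 1 to 3 counts.

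Ftcd, the last histidine enzyme, and Tat, the first tyrosine enzyme, did not separate RC/- from RC/+. Ftcd was 0.408, 0.0885 and 0.482 CPM in RC/+ and 0.684, 0.253, 0.755, 0.252 and 0.177 CPM in RC/-, with a log2 fold change of 0.32 (95% interval -0.73 to 1.37). In RC/- D18 it spanned 0.144 to 1.14 CPM, the widest range of any group, and in RC/- D53 0.195 to 0.541 CPM. Tat had 0, 2 and 5 counts in RC/+ and 34, 0, 3, 14 and 6 counts in RC/-, with a log2 fold change of 1.19 (95% interval -0.43 to 2.80). It had 1 count in all 5 RC/- D18 libraries together and 0, 1, 21, 2 and 25 counts in RC/- D53.

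Read over the set, RC/- kidneys were below every RC/+ kidney for 5 of 9 members, where 11.6% of the 22570 genes tested behaved this way, and above for 1 of 9, where 26% of genes did. The contrast chose the set, and nothing is read from these counts. The median log2 fold change was -1.11 over the members and 0.14 over all genes. RC/- D18 kidneys were above every RC/- kidney for 5 members (9.01% of genes) and below for 1 (18.8% of genes), with a median of 0.94 against -0.10 over all genes. RC/- D53 kidneys were above every RC/- kidney for 4 members (6.98% of genes), with a median of 0.88 against -0.08. These 3 comparisons share the RC/- libraries. With TMM scaling (trimmed mean of M-values) the median of all genes in RC/- against RC/+ moved to 0.01. Amdhd1 then joined the members that did not overlap in the first and second comparison. The shares of all genes became 17.6% lower and 16.9% higher in the first comparison and 13.2% lower and 13% higher in the second. In the third comparison 9.69% were higher.

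**Figure D2:**
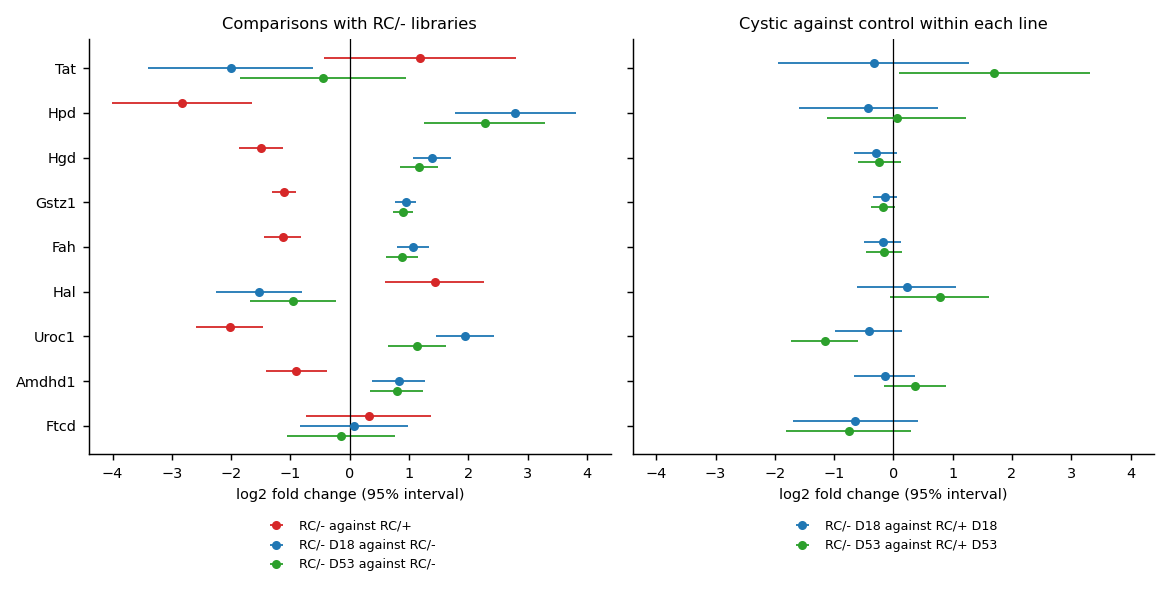
Log2 fold change (horizontal axis) with its 95% interval for each enzyme, in the 3 comparisons that use RC/- libraries (left) and between cystic and control kidneys within each edited line (right). On the left the points of each enzyme but Ftcd lie on opposite sides of 0 for RC/- against RC/+ and for edited against RC/-. These comparisons share the RC/- libraries, and the first of them chose the set, so their intervals are not read as tests. On the right most intervals include 0, and those of Tat and Uroc1 in the D53 line do not. Uroc1 was known to be lower in that line and was not tested there.

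Whether the enzymes differed between cystic and control kidneys once the motif was removed was tested within each line, in comparisons that share no library with RC/- against RC/+. In the D18 line limma-trend, adjusted by Benjamini-Hochberg over all 22570 genes, called 0 of 9 members (0.266% of genes were called). An unadjusted p below 0.05 was found for 0 members and for 2011 of all genes. The lowest adjusted p among members was 0.681, for Hgd. The log2 fold change of RC/- D18 against RC/+ D18 was -0.42 for Hpd (95% interval -1.60 to 0.76), -0.30 for Hgd (-0.67 to 0.06), -0.15 for Gstz1 (-0.35 to 0.05), -0.18 for Fah (-0.49 to 0.13) and -0.41 for Uroc1 (-0.98 to 0.15). The intervals of Hgd, Gstz1 and Fah leave room for a decrease of up to 0.67 on the log2 scale, while that of Hpd reaches -1.60. The edgeR quasi-likelihood test and the DESeq2 Wald test also called 0 of the 9. Hpd moved to -1.26 and Hgd to -0.53 with libraries 20 to 27, which held muscle transcripts, as a covariate. Without RC/- D18 replicates 20 to 22 they moved to the same values. Both fits gave 2 members at an unadjusted p below 0.05 by limma-trend, with 0 called. Of all genes, 2637 of 22570 and 2651 of 22656 were below 0.05 in turn. With 1 library left out Hpd was between -0.89 (without RC/+ D18 replicate 9) and -0.02 (without RC/+ D18 replicate 8).

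In the D53 line 0 of 8 tested members were called (2.6% of genes were called). An unadjusted p below 0.05 was found for 1 of them and for 3013 of all 22570 genes. Uroc1 was known to be lower in this line when the set was made and was not tested with D53 libraries. Its 5 RC/- D53 libraries (4.47 to 6.92 CPM) lay below all 3 RC/+ D53 libraries (12.2 to 14.01 CPM), a log2 fold change of -1.16 (95% interval -1.73 to -0.60). The other members that were lower in RC/- had intervals that included 0 here, with log2 fold changes of 0.05 for Hpd (-1.13 to 1.23), -0.24 for Hgd (-0.60 to 0.13), -0.17 for Gstz1 (-0.37 to 0.03) and -0.16 for Fah (-0.47 to 0.15). Hal was 0.78 higher (-0.06 to 1.61, adjusted p = 0.423 by limma-trend), with 3 to 15 counts against 2 in each control. The lowest adjusted p was that of Tat (0.339 by limma-trend, log2 fold change 1.70), which was at 0 counts in all 3 RC/+ D53 libraries. The limit that 0 allows is 3 counts over the group, or 0.0415 CPM. The pooled RC/- D53 level of 0.352 CPM was at least 8.48-fold above this limit, which covers counting error only and not differences between kidneys. Of the 49 pooled counts, 21 and 25 were in replicates 25 and 27. Replicates 23, 24 and 26 had 0, 1 and 2 counts, so the groups overlapped and the fold holds for the pooled level only. By edgeR and by DESeq2, 0 of the 8 were called. Their unadjusted p was below 0.05 for 2 and 1 members (2928 and 2936 of 22570 genes). Fitted to the D53 groups alone, limma-trend gave 4 of the 8 at an unadjusted p below 0.05 (3383 of 22191 genes). The lowest adjusted p of the 8 was 0.284 in that fit, and 0 were called.

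The edited cystic groups were also set against each other. RC/- D53 against RC/- D18 gave 0 of 8 members called (0.266% of genes). Of the 8, 1 had an unadjusted p below 0.05 (2993 of 22570 genes). That member was Tat (log2 fold change 1.57, 95% interval 0.17 to 2.96, adjusted p = 0.320 by limma-trend). Uroc1, not tested, was lower in D53 by 0.80 on the log2 scale, with 1 RC/- D18 library inside the D53 range. RC/+ D53 against RC/+ D18 gave 0 of 8 (0.00443% of genes), with a lowest adjusted p of 0.736 (limma-trend). Hgd, Fah and Amdhd1 were lower in every RC/+ D53 library than in any RC/+ D18 library, and the share of all genes that did so was not counted. The difference between the lines in their cystic contrast gave 0 of 8 (0% of genes), with a lowest unadjusted p of 0.078, for Tat. In the latter 2 contrasts 0 members had an unadjusted p below 0.05 by limma-trend fitted to all 24 libraries. Fitted to the RC/+ D53 and RC/+ D18 groups alone, limma-trend gave 4 of 7 members below 0.05 (1763 of 22572 genes). The lowest adjusted p of the 7 was 0.465. Fitted to the edited groups alone, limma-trend gave 1 of 8 below 0.05 (944 of 22361 genes) for the difference between the lines. No member was called in either fit. In all 3 contrasts edgeR and DESeq2 each called 0 members, with 1 at an unadjusted p below 0.05. Over all 22570 genes 831 to 2919 were below 0.05 in these fits.

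The RC/+ libraries overlapped with those of RC/+ D18 and with those of RC/+ D53 for each of the 9 members. Relative to RC/+, the median log2 fold change over the 9 members was 0.11 in RC/+ D18 and -0.09 in RC/+ D53; these 2 values are descriptions, since they use the RC/+ libraries.

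The spread between kidneys of the same group differed by gene. The SD of log2 CPM within groups was 1.18 for Tat, 0.89 for Hpd, 0.74 for Ftcd, 0.54 for Hal, 0.41 for Uroc1, 0.37 for Amdhd1, 0.27 for Hgd, 0.23 for Fah and 0.14 for Gstz1. Hpd varied more than 99.8% of the 2012 genes within 0.5 log2 units of its own level, and Tat more than 99.6% of 3373 such genes. Gstz1, in contrast, varied more than 66.9% of 1142 genes at its level.

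With the group means removed, the lower members varied together from kidney to kidney. Over the 24 libraries Pearson's r was 0.92 between Gstz1 and Fah, 0.82 between Hgd and Fah, 0.80 between Hgd and Uroc1, 0.79 between Hpd and Gstz1 and 0.77 between Uroc1 and Amdhd1. Among these 6 genes r spanned 0.48 to 0.92. Tat had r of -0.58 to -0.22 with the same 6, and Hal 0.16 to 0.47. The points share libraries, and with them depth and tissue make-up, so r is given as a description.

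**Figure D3:**
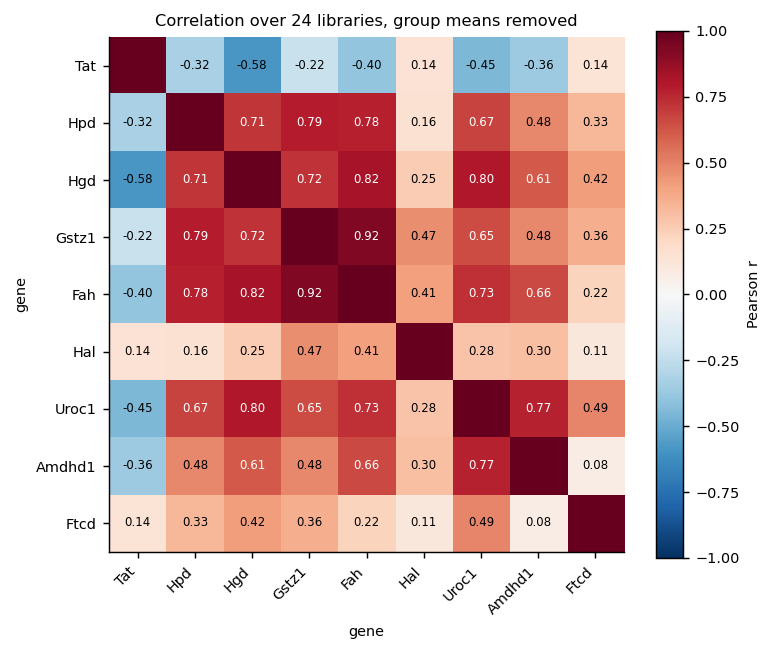
Pearson's r between the enzymes over 24 libraries after the group means were removed (color and printed value; genes on both axes). The block of Hpd, Hgd, Gstz1, Fah, Uroc1 and Amdhd1 is positive throughout, and the row of Tat is negative against each of them.

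The genes whose log2 CPM followed the mean of the scaled members most closely over the 24 libraries were Ttc36 (r = 0.94), Aldh5a1 (0.94), 0610005C13Rik (0.93), Fabp3 (0.93) and Slc25a5 (0.93). Aldh5a1 encodes succinic semialdehyde dehydrogenase, Fabp3 a fatty acid binding protein and Slc25a5 a mitochondrial ADP/ATP carrier. As group means, RC/+ had 18.5 CPM of Ttc36, RC/- had 8.70, RC/- D18 had 18.6 and RC/- D53 had 17.1. 0610005C13Rik had means of 52.6, 21.7, 54.0 and 47.4 CPM in the same order.

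Proximal tubule markers moved with the lower members. All 12 markers, among them the transporters Slc34a1 and Slc5a2 and the uptake receptor Lrp2, were lower in RC/- than in RC/+ without overlap. Summed, they reached 10923 to 11889 CPM in RC/+ and 2655 to 6025 in RC/-, and the edited cystic groups had 9925 to 13856 (D18) and 8000.3 to 9908 (D53). The median log2 fold change of the markers was -1.39 in RC/- against RC/+, next to -1.11 for the members. In whole kidney, fewer cells of a type and less RNA per cell cannot be told apart, and the part of tubule content in the enzyme levels was not tested. Macrophage markers were higher in RC/- for 8 of 8 genes without overlap (summed 416 to 712 CPM, against 224 to 237 CPM in RC/+), and their part was not tested.

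Of 12 hepatocyte markers, 6 moved with Tat and 6 did not separate the libraries in this way. In RC/- replicates 13, 16 and 17 and RC/- D53 replicates 25 and 27, albumin (Alb) was 9.11 to 88.3 CPM, against 0.613 to 3.11 CPM in the other 19 libraries, and Ahsg, Apoa1, Cps1, F2 and Apoh were also above all others in these 5. Of the other markers, Ttr, the transthyretin gene, was lower in RC/- than in RC/+ without overlap (log2 fold change -1.56), Serpina1a was at -0.87 and Apoa2 at -0.38, both overlapping, and Fgb was higher without overlap (1.45). Tat was 0.265 to 1.45 CPM in these 5 libraries and 0 to 0.201 CPM in the other 19. The summed list of 12 hepatocyte markers overlapped between the 2 sets (95.2 to 377 CPM and 92.5 to 268 CPM). Ttr and Serpina1a, with RC/+ means of 167 and 55.7 CPM, made up most of the RC/+ sum of 226 to 243 CPM. Cyp7a1, the first enzyme of bile acid synthesis, was at 0 in 20 libraries. It was 0.171, 0.042 and 0.0885 CPM in RC/- replicates 13, 16 and 17 and 0.0392 CPM in RC/- D18 replicate 20. The part of liver RNA in the Tat level was not tested. Hal did not follow the markers in RC/- replicate 14, where it was at its highest (0.971 CPM) with Alb at 0.634 CPM. Without the 5 libraries Tat was under the expression limit, and Hal in RC/- against RC/+ was 1.60, Hpd -2.33, Hgd -1.14, Gstz1 -1.01, Fah -0.90, Uroc1 -1.62 and Amdhd1 -0.61 on the log2 fold change scale.

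**Figure D4:**
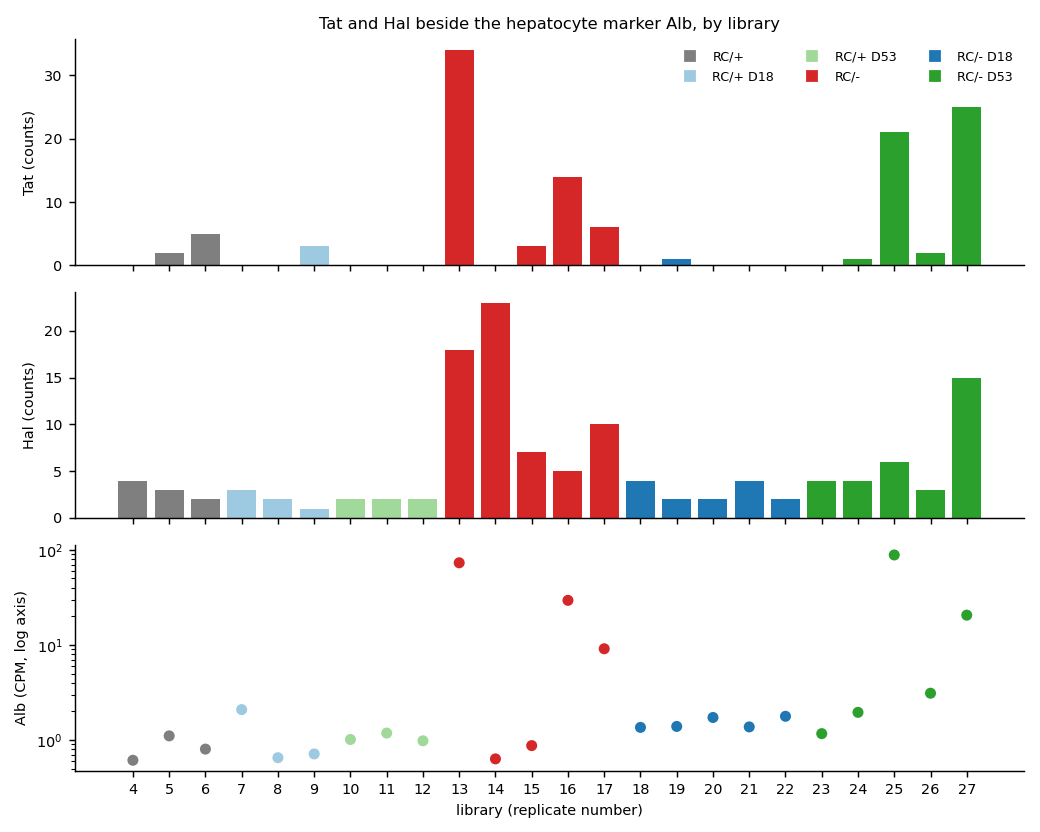
Counts of Tat (top) and Hal (middle) and the level of the hepatocyte marker Alb in CPM on a log axis (bottom) in each library, in order of replicate number and colored by group. The tallest Tat bars stand in replicates 13, 16, 25 and 27, where Alb is high, and the tallest Hal bar stands in replicate 14, where Alb is low.

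Libraries also differed in transcripts of other tissues. RC/- replicate 16 had adrenal cortex markers (Cyp11a1 318 CPM, Hsd3b1 452 CPM). With any 1 library of RC/- or RC/+ left out, replicate 16 included, the median of the members in RC/- against RC/+ was between -1.18 and -1.02. Replicates 20 to 22 of RC/- D18 and every RC/- D53 replicate, numbered 20 to 27 in all, held skeletal muscle transcripts. The summed muscle markers were 147 to 194 CPM in RC/- D53, against 5.27 to 9.36 CPM in the RC/+ groups and RC/-. In RC/- D53 against RC/+ D53 or against RC/-, this set of libraries and the group cannot be told apart. Within RC/- D18, Hpd was 11.4 and 15.8 CPM in the libraries outside this set and 17.9, 36.6 and 68.3 CPM in those inside it. With the set as a covariate, the log2 fold change of Hpd in RC/- D53 against RC/+ D53 turned from 0.05 to -1.34, and that in RC/- D53 against RC/- went from 2.27 to 0.88. In RC/- D53 against RC/+ D53 limma-trend called 6 of 6 muscle and 6 of 8 macrophage markers higher, where 2.6% of all genes were called. All 8 macrophage markers had an unadjusted p below 0.05, and 7 were higher without overlap. Of 12 proximal tubule markers 0 were called, 4 had an unadjusted p below 0.05 and 7 were lower without overlap. Over all genes 3013 of 22570 had an unadjusted p below 0.05 here, and the share without overlap was not counted. The sum of the proximal tubule markers was 8000.3 to 9908 CPM in RC/- D53, against 10720 to 11809 CPM in RC/+ D53. The part of any of these in the member levels was not tested.

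Sex made no difference that passed the test. Of 22570 genes 11 were called for sex in a model with the 6 groups, by limma-trend, and none was a member. The lowest unadjusted p among members was that of Ftcd (0.0368, adjusted p = 0.985, 0.61 lower in males on the log2 scale), followed by Uroc1 (0.052).

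The neighbouring enzymes of both routes were examined in lists that held no member. Of 13 genes of phenylalanine and tyrosine metabolism, 7 were lower in RC/- than in RC/+ without overlap and 1 was higher, with a median log2 fold change of -0.44. Among them Ddc, which makes dopamine, was at -1.12 (SE 0.18) and Qdpr, which recycles the cofactor tetrahydrobiopterin, at -0.87 (SE 0.09). The gene that was higher was Gch1, the first enzyme of tetrahydrobiopterin synthesis, at 0.72. In both edited lines 0 of the 13 were called between cystic and control kidneys, with 1 in each at an unadjusted p below 0.05 by limma-trend. Over all 22570 genes 2011 (D18) and 3013 (D53) were below 0.05, and this holds beside the lists below too. Ddc was at -0.31 in the D18 line and -0.34 in the D53 line.

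Of 14 genes of histidine and one-carbon metabolism, 6 were lower and 2 higher without overlap, with a median of -0.45. Cndp1, which cleaves the histidine dipeptide carnosine, was at -1.74 (SE 0.21) and Gnmt, which uses S-adenosylmethionine to methylate glycine, at -1.68 (SE 0.28). Mat1a, the liver form of the enzyme that makes S-adenosylmethionine, was higher at 2.53 (SE 0.85), and Carns1, which makes carnosine, at 0.86. Mat1a was 0.487 to 4.58 CPM in the 5 libraries high in hepatocyte markers and 0.0355 to 0.394 CPM in the other 19, and the part of liver RNA in its level was not tested. Within the lines 0 of the 14 were called by limma-trend, with 0 (D18) and 3 (D53) at an unadjusted p below 0.05; in the D53 line DESeq2 called 1 and the fit to the D53 groups alone called 1, Cndp1.

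Of 40 other amino acid breakdown enzymes, 33 were lower and 2 higher without overlap, with a median of -0.94. Over all genes 11.6% were lower and 26% higher in this way, and the lists, chosen with results known, were not tested against each other. Dmgdh, of choline breakdown, was at -1.95 (SE 0.18), Agxt2 at -1.60 (SE 0.20) and Aadat, of the kynurenine and lysine routes, at -1.53 (SE 0.15). The 2 higher genes were Sdsl (0.43) and Oat, ornithine aminotransferase (0.61). In the D18 line 0 of 40 were called, with 3 at an unadjusted p below 0.05, and in the D53 line only Oat was called by limma-trend, upward, with 11 at an unadjusted p below 0.05. Oat was no longer called with TMM or DESeq2 scaling, by edgeR or DESeq2, with libraries 20 to 27 as a covariate, without the 5 libraries high in hepatocyte markers, or without RC/+ D53 replicate 10 or 11 or RC/- D53 replicate 24. With the D53 groups alone 7 of the 40 were called, Oat, Dmgdh and Agxt2 among them, where 772 of all 22191 genes were. Dmgdh was at -0.48 and Agxt2 at -0.31 in this line by the main fit. DESeq2 called 1 gene. Of the 40, 13 were lower in RC/- D53 than in RC/+ D53 without overlap and 1 was higher. The share of all genes without overlap in this comparison was not counted, so nothing is read from these counts. The median log2 fold change was -0.20 over the 40 and 0.04 over all genes.

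Of 10 transcription factors of liver and proximal tubule, 4 were lower without overlap in RC/-, among them Ppara (-1.34, SE 0.24), Hnf4a (-1.22) and Nr1h4 (-0.95). Hnf4a encodes a factor after which a motif above is named, and is also among the proximal tubule markers. Foxa3 had the largest absolute value (1.75, SE 0.55) and overlapped. Within each edited line 0 of 10 were called by limma-trend, with 0 (D18) and 3 (D53) at an unadjusted p below 0.05, and Ppara was called in the D53 line with libraries 20 to 27 as a covariate. All 4 lists were written with results of these libraries known.

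**Figure D5:**
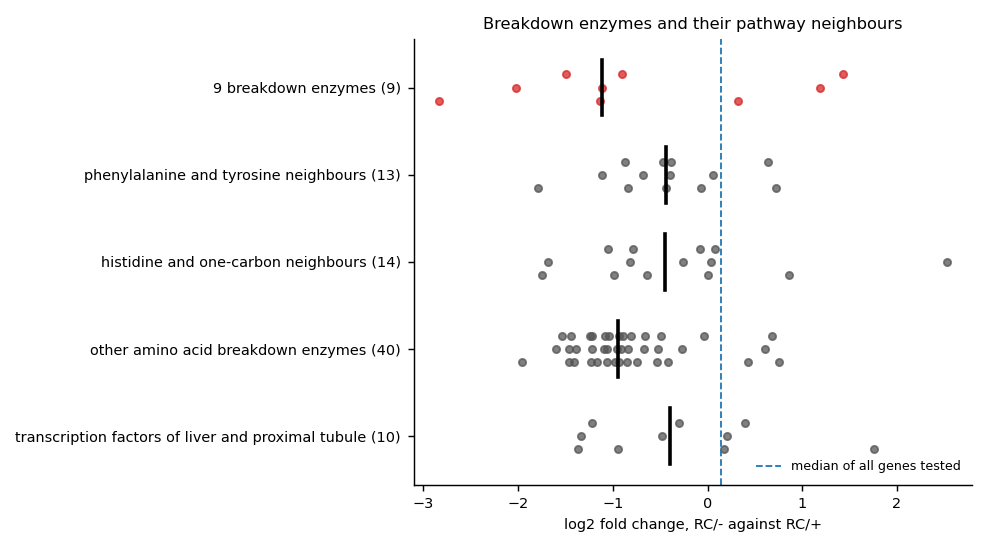
Log2 fold change in RC/- against RC/+ (horizontal axis) of the 9 enzymes and of 4 lists of related genes, 1 point per gene, with a black bar at the median of each list and a dashed line at the median of all genes tested (0.14). The medians are -1.11, -0.44, -0.45, -0.94 and -0.39 from top to bottom.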

How the data were processed

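The authors trimmed the reads with Trim Galore 0.6.3, aligned them to GRCm38 with STAR 2.5.3a and let STAR count reads per Ensembl gene. These counts were deposited raw, not normalized, for 54532 genes in 24 libraries, and no column of sample values was left unused (0). Which strand column was kept is not given in the sources used here. Coordinates, exons and exon lengths came from GENCODE M21 (54495 identifiers matched), and promoters from RefSeq, with a window for all 9 members. The 9 members, the gene lists and the tests were chosen with earlier results of these data known. Named genes are the members, the 3 of each list with the largest absolute log2 fold change in RC/- against RC/+, the 5 genes most like the members, and Pkd1; Gch1, Carns1, Sdsl, Oat, Hnf4a, Nr1h4 and the hepatocyte markers Ttr, Serpina1a, Apoa2, Apoh, Fgb, Cps1, F2 and Cyp7a1 were named after their values were seen. Some genes that this rule takes are not reported here.

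Counts were converted to log2 CPM by total counts with a prior count of 2 (edgeR 4.0.16), genes with a mean of at least -3 were kept (22570), and 6 group means were fitted to all 24 libraries with limma 3.58.1 (limma-trend, R 4.3.3), two-sided, with Benjamini-Hochberg adjustment and calls at 0.05. Comparisons of groups that use RC/- or RC/+ have no p, and Uroc1 has none in comparisons with a D53 group; the sex term was tested over all 24 libraries. Non-overlap means that all CPM of a group lie on one side of all CPM of the other. The fit was tested on simulated data, and the 39 pairs of libraries within groups were checked for copies, and none was found (chi-square per degree of freedom at least 8.45 where 2 libraries together had 20 or more counts). Alternatives were TMM and DESeq2 size factors, filters, prior count, edgeR, DESeq2 1.42.0, covariates, fewer samples and each library left out. Sex was read from the counts (14 female, 10 male libraries). The limit for 0 was 3 counts over a group, for counting error only. Genes with no symbol held at most 0.0261% of a library.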

Additional observations from a re-analysis of the deposited data

Results flagged for a closer look

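A search for single samples far from their group, over 27 sets of 5 libraries, marked 2, and chance marks about 1 in 20. Tat was at 0.0479 CPM in RC/- D18 replicate 19, which is 1 count, while the other 4 libraries of the group had 0. Hal was at 0.541 CPM in RC/- D53 replicate 27, while the other 4 had 0.104 to 0.220 CPM. Replicate 27 was also 1 of the 5 libraries with high hepatocyte markers (Alb 20.6 CPM), and the part of these markers in the Hal value was not tested.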

How the results depend on the processing

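Counts of called members were 0 in all 5 tested comparisons under every setting tried, among them TMM and DESeq2 size factors, no filter, a filter at a mean log2 CPM of 0, a prior count of 0.5, edgeR, DESeq2, the groups of the comparison alone, sex or libraries 20 to 27 as a covariate, fewer libraries and each library left out. The median log2 fold change of the members in RC/- against RC/+ was -1.31 to -0.95 under these settings and -1.18 to -1.02 with 1 library left out. In RC/- D18 against RC/- it was 0.83 to 1.22 and 0.89 to 1.01, and in RC/- D53 against RC/- 0.79 to 1.02 and 0.77 to 0.97.

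Among uncalled values of tested comparisons, the sign changed for those of Amdhd1 in RC/- D18 against RC/+ D18 (0.0225 with libraries 20 to 27 as a covariate and 0.0225 without RC/- D18 replicates 20 to 22, -0.35 to 0.0379 with 1 library left out), of Tat in the same comparison (-0.57 to 0.14 with 1 library left out), and of Hpd in RC/- D53 against RC/+ D53 (-1.34 with libraries 20 to 27 as a covariate, -0.19 to 0.23 with 1 library left out). Among descriptions of overlapping groups it changed for Ftcd in RC/- D18 against RC/- (0.07, and -0.79 with that covariate, -0.16 without the 5 libraries high in hepatocyte markers, -0.27 to 0.34 with 1 library left out), in RC/- against RC/+ (0.32, and -0.22 without RC/+ replicate 5) and in RC/- D53 against RC/- (-0.14, and 0.05 and 0.08 without RC/- replicate 13 or 15), and for Tat in RC/- D53 against RC/- (-0.45, and 0.08 without RC/- replicate 13). The cause was not tested. The covariate for libraries 20 to 27 is set by RC/- D18 alone, where replicates on both sides of it exist.

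Counts over all genes moved more. In RC/- D18 against RC/+ D18 they were 60 by limma-trend, 37 by edgeR, 143 by DESeq2 and 12 with these groups alone. They were 11 with libraries 20 to 27 as a covariate and 2 without RC/- D18 replicates 20 to 22. With 1 library left out they were 14 (without RC/+ D18 replicate 8) to 90 (without RC/+ D18 replicate 9). Without RC/- D18 replicate 21 and RC/+ D18 replicate 7 in turn they were 23 and 27. The 0.266% of genes became 0.062% to 0.399% with 1 library left out. The settings with 143, 12, 11 and 2 calls lie outside this range. In RC/- D53 against RC/- D18 they were 60 by limma-trend, 276 by DESeq2, 163 with that covariate, 3 without the 5 libraries high in hepatocyte markers, a setting chosen after seeing the data, and 19 (without RC/- D53 replicate 25) to 59 with 1 library left out, with 36 without RC/- D53 replicate 27 and 23 and 39 without RC/- D18 replicates 22 and 19 in turn. In RC/- D53 against RC/+ D53 they were 587 by limma-trend, 287 with the covariate, 349 without the 5 libraries and 312 (without RC/+ D53 replicate 12) to 577 with 1 library left out, with 381 and 324 without RC/+ D53 replicates 10 and 11 in turn. Fold changes of Tat and Hal rest on few counts and depend on the prior count (Tat in RC/- D18 against RC/- was -2.01 with a prior count of 2 and -3.20 with 0.5). No paired analysis was possible because replicate numbers differ between all groups.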
